A study of Mus musculus with 5 samples.

Results

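BATF and AP-1 proteins are transcription factors with a basic leucine zipper, and the RNA of 10 mouse genes of this kind was compared between tumoricidal and control macrophages. The genes were Batf, Batf2 and Batf3, the BATF genes, and Fos, Fosb, Fosl2, Jun, Junb, Jund and Atf3, here called the AP-1 genes. They make up 10 of the 17074 genes with a tested probe set. Every probe set that the platform annotation gives to 1 of these symbols was taken, which gave 13 of 45101 probe sets. None of the 13 carried a second symbol. A probe set is a group of short probes on the array that read the same transcript.

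The tumoricidal group held CD11b+ macrophages, 3 arrays described as biological replicates, from Balb/c SCID mice with a transgenic T-cell receptor for an idiotype. These mice had received MOPC315 myeloma cells in Matrigel under the skin. The control group held CD11b+ macrophages, 2 arrays, from TCR-transgenic SCID mice that had received an antigen-loss form of MOPC315 in Matrigel. All mice were adults aged 7 to 12 weeks, and the plugs were taken on day 8. SCID mice have hardly any B or T cells other than T cells with the transgenic receptor, and the samples are sorted from a plug that also held myeloma cells. The labels do not say how many animals went into each array.

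AP-1 is a dimer, usually of a Jun protein with a Fos or ATF protein, that binds short DNA sites. Many of its genes are immediate-early genes, which are transcribed within minutes of a stimulus or a stress through MAP kinases, also when tissue is taken apart into cells. BATF proteins are small relatives that lack the activation domains of Fos. They pair with Jun proteins, and some of these pairs bind next to the interferon regulatory factors Irf4 or Irf8. In mouse macrophages Batf2 is known as a gene that interferon-gamma induces.

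Signals below are linear values per probe set after each array was scaled to a common median, and the lowest value used was a floor of 4.79. Median signals before scaling were 15.4 to 18.7 on the tumoricidal arrays and 18 to 22.6 on the control arrays. By the signals of the spike-in controls, the arrays fell into side A (tumoricidal replicates 1 and 2 with control replicate 1) and side B (tumoricidal replicate 3 with control replicate 2), and neither the labels nor the table gives an origin for this. All 9 measured macrophage markers were above the floor on every array. Their summed signal was 23300 to 35040 on tumoricidal arrays and 21480 to 27710 on control arrays. Differences are tumoricidal minus control on the log2 scale, and a call means an adjusted p from limma under 0.05 over all 41053 tested probe sets. Of these, 14 were called higher (0.0341%) and 7 were called lower (0.0171%). None of the 13 BATF and AP-1 probe sets was among them. At an unadjusted p under 0.05, Batf2 and Batf3 were higher and no BATF or AP-1 probe set was lower, against 4.92% and 3.07% of all tested probe sets.

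The BATF genes stood higher on every tumoricidal array than on either control array, while most AP-1 genes overlapped between the groups. Of all tested probe sets, 13.3% lay fully higher and 7.60% fully lower, and the rest overlapped. Batf2 had the widest gap and Batf3 the next, and neither passed the adjusted threshold. The mean difference was 1.52 over the 3 BATF genes and 0.05 over the 7 AP-1 genes, each read by its brightest probe set. The AP-1 mean turned negative with quantile normalization and with the deposited scaling, at -0.26 and -0.18. The gap between both means was 1.47 and was not tested, since the genes were chosen with earlier results known.

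**Figure D1:**
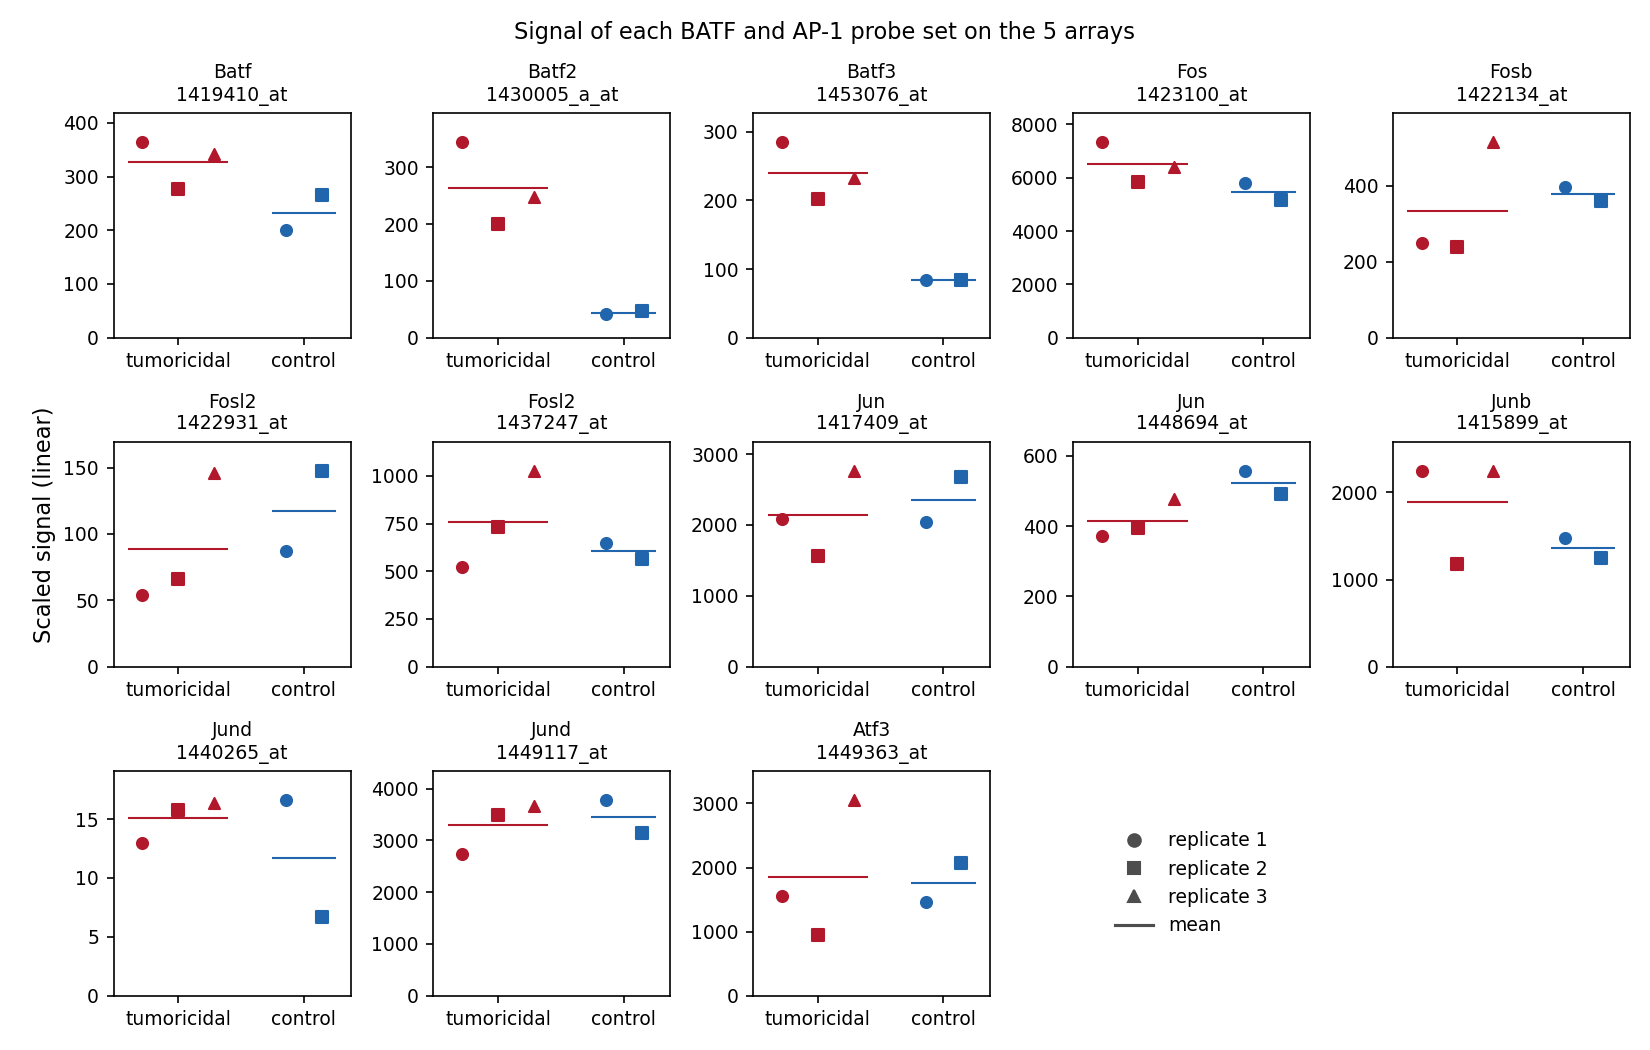
Scaled linear signal (y axis, from 0) of each of the 13 BATF and AP-1 probe sets, with the 3 tumoricidal arrays in red on the left and the 2 control arrays in blue on the right. Symbols mark the replicate and lines the group means. Batf2 and Batf3 show a clear gap between the groups, while Fosb, Fosl2, Junb, Jund and Atf3 overlap.

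Batf2 had signals of 344.3, 200.9 and 248.1 in tumoricidal replicates 1 to 3, against 41.3 and 46.3 in control replicates 1 and 2. The lowest tumoricidal array lay far above the highest control array. The mean signal was 264.5 ± 73.1 (SD, n = 3) in tumoricidal and 43.8 ± 3.57 (SD, n = 2) in control macrophages, and the log2 difference was 2.56, or 5.90-fold (SE 0.31, 95% interval 1.80 to 3.33). Its unadjusted limma p was 0.000216 and its adjusted p 0.0998. Only 0.229% of the tested probe sets had a larger difference. With the fit restricted to the 22518 probe sets above the median, Batf2 was called (adjusted p = 0.00841), where 0.746% of probe sets were called higher and 0.111% lower. It was also called with an intensity trend in the variance model (adjusted p = 0.0378). The difference was 2.67 within side A and 2.42 within side B.

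Batf3, which in mice is needed for the type 1 dendritic cells that present antigen to CD8+ T cells, had signals of 284.6, 201.8 and 231.9 in the tumoricidal replicates, against 84.7 and 84.1 in the control replicates. Both control arrays nearly coincided, and every tumoricidal array lay well above them. The log2 difference was 1.49, or 2.81-fold (SE 0.26, 95% interval 0.85 to 2.13), with a limma adjusted p of 0.205. Within sides A and B it was 1.5 and 1.46. Restricted to probe sets above the median, its adjusted p was 0.0597, which still missed the threshold.

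Batf, the founding member of the family and known from T-cell and B-cell differentiation, differed least. Its signals were 363.9, 276.7 and 342.4 in the tumoricidal replicates, against 199.7 and 265.4 in the control replicates. Tumoricidal replicate 2 exceeded control replicate 2 by only a few units. The log2 difference was 0.50 (SE 0.27, 95% interval -0.17 to 1.17; limma adjusted p = 0.765), and it was 0.28 with quantile normalization and 0.27 with the deposited scaling. It depended on the control array, at 0.29 without control replicate 1 and 0.70 without control replicate 2. The 3 genes also shared an order among the arrays: tumoricidal replicate 1 was the highest array and tumoricidal replicate 2 the lowest tumoricidal array for all of them. Tumoricidal replicate 1 was also the highest array for 3827 of all 17074 genes. The groups did not overlap for any of the 3 BATF genes under the median, quantile or deposited scaling. Under the median scaling, 13.3% of all tested probe sets lay fully higher.

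**Figure D2:**
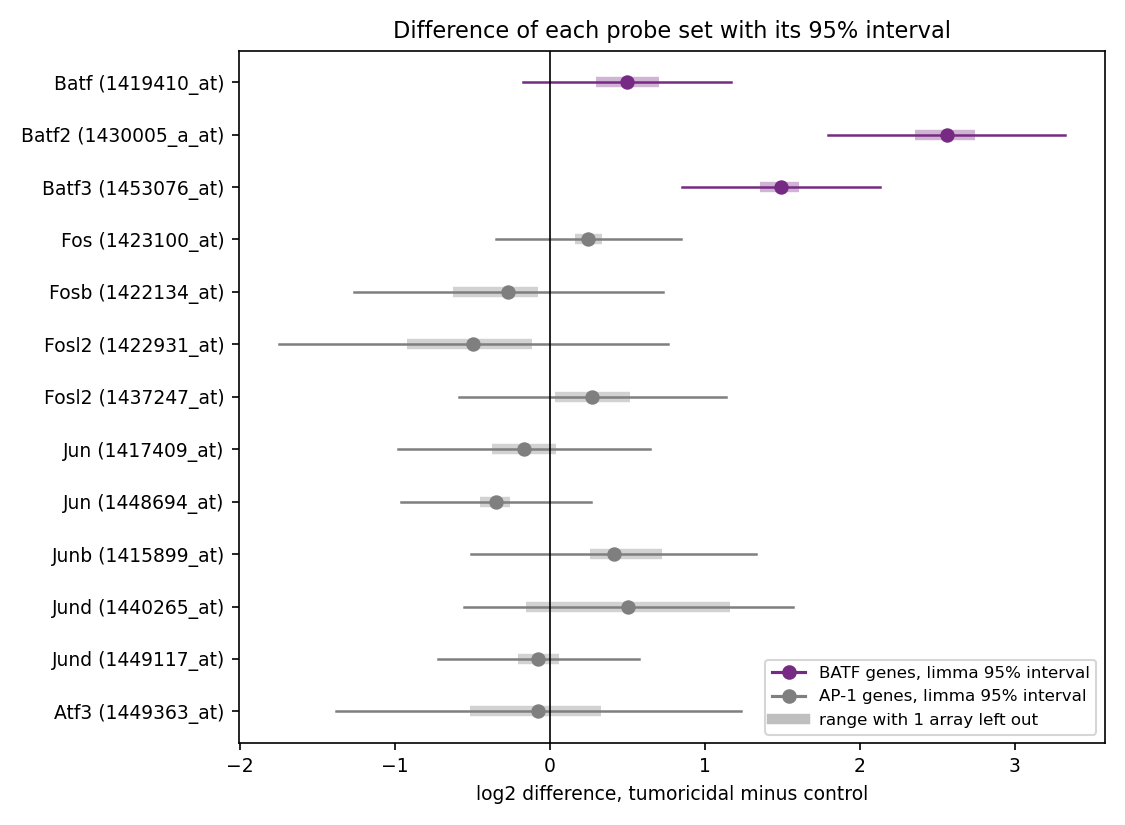
Log2 difference, tumoricidal minus control (x axis), of each BATF (purple) and AP-1 (grey) probe set. Points are limma estimates, thin lines 95% intervals, and thick pale bars the range with 1 array left out; the intervals of Batf2 and Batf3 lie above 0 and those of all other probe sets hold 0.

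The promoter sequences of Batf and Batf3 are shown because both genes stood higher on all tumoricidal arrays while differing in size of change. They run from 250 bases before to 50 bases after the gene start, are taken from RefSeq on build GRCm38.p6, and are printed 5′ to 3′. Batf3 lies at chr1:191098164-191098463 and Batf at chr12:85686470-85686769, both on the plus strand. Capitals mark matches, on either strand, to the AP-1 site TGANTCA, the CRE or Jun-type site TGACNTCA, the CRE core TGACGT, the interferon-stimulated response element, the gamma-activated sequence TTCNNNGAA that STAT proteins bind, and the CArG box of serum response factor. A full CRE matches both CRE motifs, so these overlap.
Batf3: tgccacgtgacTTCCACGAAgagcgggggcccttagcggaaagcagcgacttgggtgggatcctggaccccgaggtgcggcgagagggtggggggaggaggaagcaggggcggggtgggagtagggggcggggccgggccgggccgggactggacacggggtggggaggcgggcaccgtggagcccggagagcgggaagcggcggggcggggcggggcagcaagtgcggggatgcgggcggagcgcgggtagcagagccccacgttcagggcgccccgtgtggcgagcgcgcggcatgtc
Batf: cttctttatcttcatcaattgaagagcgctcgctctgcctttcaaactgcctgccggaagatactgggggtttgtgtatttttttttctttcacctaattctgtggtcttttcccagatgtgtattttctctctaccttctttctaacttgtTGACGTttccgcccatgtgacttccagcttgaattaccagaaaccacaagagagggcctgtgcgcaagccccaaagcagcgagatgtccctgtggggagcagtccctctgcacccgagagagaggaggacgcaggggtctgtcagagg
The Batf3 promoter held 1 match to the gamma-activated sequence, with its first base at position -239 from the gene start, and such a match stood in 8.30% of 32851 promoters of the same length. The Batf promoter held 1 CRE core at position -98, a match found in 7.51% of promoters. These are matches of letters and not measured binding. Promoters were found for 9 of the 10 genes, all but Batf2.

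The AP-1 genes gave signals above the floor on every array, with no probe set called and none at an unadjusted p under 0.05. Over their 10 probe sets the log2 differences ran from -0.49 to 0.50, with 4 positive and 6 negative and a median of -0.07, beside a median of 0.09 over all tested probe sets. The groups did not overlap for 1 probe set that was higher and 1 that was lower, against 13.3% and 7.60% of all tested probe sets.

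Among the Fos proteins, which must pair with Jun to bind DNA, Fos itself had signals of 7330.4, 5845.7 and 6387.9 in the tumoricidal replicates, against 5795.6 and 5152.4 in the control replicates. The groups were apart by a narrow margin, and they overlapped with quantile normalization and with the deposited scaling. The log2 difference of Fos was 0.25 (SE 0.24, 95% interval -0.35 to 0.85; limma adjusted p = 0.853), and it became -0.0038 with quantile normalization. Fosb, which is induced together with Fos, had 250.1, 239.4 and 514.1 in the tumoricidal replicates, against 395.7 and 359.8 in the control replicates. The control arrays lay between the tumoricidal ones. The difference of Fosb was -0.27 (95% interval -1.26 to 0.73), at -0.69 within side A and 0.51 within side B.

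Fosl2 (Fra-2), a slower member that lasts longer after a stimulus, has 2 probe sets that differed in sign. The brighter one had 521.1, 732.5 and 1023.7 in the tumoricidal replicates, against 646.5 and 566.1 in the control replicates. The dimmer one had 54.1, 66.1 and 145.6 in the tumoricidal replicates, against 87.3 and 147.2 in the control replicates. On both, tumoricidal replicate 3 was the highest tumoricidal array and the groups overlapped. The log2 differences were 0.27 (95% interval -0.59 to 1.13) and -0.49 (95% interval -1.75 to 0.76).

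The Jun proteins can pair with Fos, ATF and BATF proteins. Jun had 2084.5, 1567.6 and 2756.9 on its brighter probe set in the tumoricidal replicates, against 2039.8 and 2677.8 in the control replicates. The groups overlapped, with a log2 difference of -0.17 (95% interval -0.98 to 0.65). Its dimmer probe set had 370.5, 394.8 and 476.6 in the tumoricidal replicates, against 555.8 and 492 in the control replicates. Here all 3 tumoricidal arrays were below both control arrays, with a difference of -0.35 (SE 0.25, 95% interval -0.96 to 0.27; limma adjusted p = 0.807). With quantile normalization both Jun probe sets lay apart and lower, at -0.53 and -0.61, and with the deposited scaling too, at -0.40 and -0.57. Neither was called. The median over all tested probe sets was 0.0016 with quantile normalization and -0.11 with the deposited scaling. The share of all probe sets lying apart and lower is not given for these scalings.

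Junb, which often opposes Jun on shared targets, had 2240.8, 1175.8 and 2242.1 in the tumoricidal replicates, against 1479.9 and 1247.2 in the control replicates. Tumoricidal replicate 2 was the lowest of the 5 arrays and the other 2 tumoricidal arrays were the highest, so that the groups overlapped. The log2 difference of Junb was 0.41 (SE 0.37, 95% interval -0.51 to 1.33; limma adjusted p = 0.841). Jund, which is present in many resting cells, had 2733.7, 3495.9 and 3657.7 on its brighter probe set in the tumoricidal replicates, against 3774 and 3145 in the control replicates, a difference of -0.08 (95% interval -0.72 to 0.57). Its other probe set was dim, at 13 to 16.4 on the tumoricidal arrays and 6.7 and 16.6 on the control arrays, with a difference of 0.50 (95% interval -0.56 to 1.57) that changed sign without control replicate 2 (-0.15).

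Atf3, a stress-induced factor that restrains inflammatory genes in macrophages, had the widest spread among the AP-1 genes. Its signals were 1553.8, 945.9 and 3049.8 in the tumoricidal replicates, against 1457.8 and 2065.6 in the control replicates. The highest and the lowest of the 5 arrays were both tumoricidal. They differed by 3.22 times. The log2 difference of Atf3 was -0.07 (SE 0.53, 95% interval -1.38 to 1.23; limma adjusted p = 0.976), and it was -0.52 when tumoricidal replicate 3 was left out and 0.33 when tumoricidal replicate 2 was. The upper ends of the 95% intervals of the 10 AP-1 probe sets lay between 0.27 and 1.57, below the lower end for Batf2 (1.80). For Batf3 the lower end (0.85) was below the upper ends of 4 AP-1 probe sets. The difference between genes itself was not tested.

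**Figure D3:**
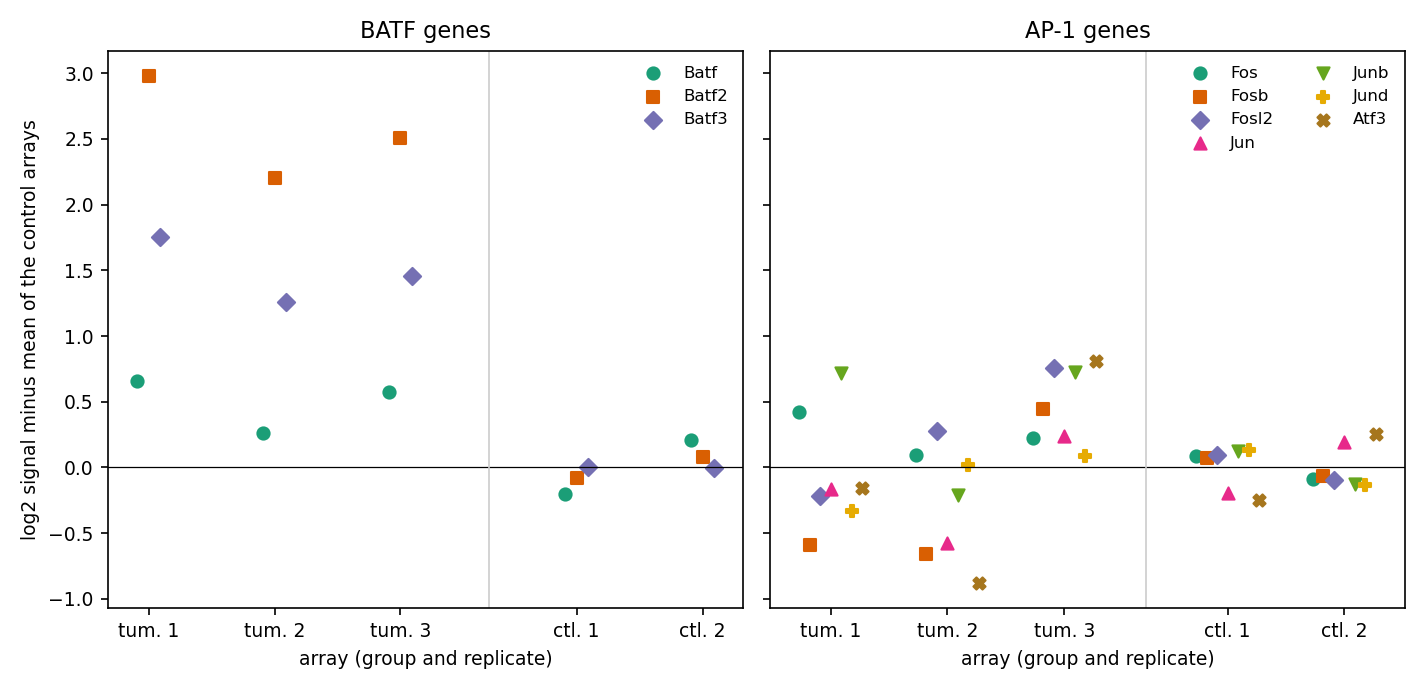
Log2 signal of each gene's brightest probe set minus its mean over the control arrays (y axis) on each of the 3 tumoricidal (tum.) and 2 control (ctl.) arrays, for the BATF genes (left) and the AP-1 genes (right). BATF points lie between 0.27 and 2.98 on the tumoricidal arrays, while AP-1 points lie on both sides of 0, and 5 of the 7 AP-1 genes have their highest signal in tumoricidal replicate 3.

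The promoters of Fos and Jun are shown, with the same capitals, as the genes that give the Fos and Jun families their names. Fos lies at chr12:85473640-85473939 on the plus strand and Jun at chr4:95052173-95052472 on the minus strand, on GRCm38.p6.
Fos: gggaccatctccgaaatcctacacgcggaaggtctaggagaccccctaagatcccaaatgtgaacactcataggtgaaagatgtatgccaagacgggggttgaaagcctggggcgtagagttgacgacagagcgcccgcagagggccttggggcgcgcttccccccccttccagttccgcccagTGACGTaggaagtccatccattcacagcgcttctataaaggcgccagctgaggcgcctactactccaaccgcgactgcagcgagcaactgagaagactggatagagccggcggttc
Jun: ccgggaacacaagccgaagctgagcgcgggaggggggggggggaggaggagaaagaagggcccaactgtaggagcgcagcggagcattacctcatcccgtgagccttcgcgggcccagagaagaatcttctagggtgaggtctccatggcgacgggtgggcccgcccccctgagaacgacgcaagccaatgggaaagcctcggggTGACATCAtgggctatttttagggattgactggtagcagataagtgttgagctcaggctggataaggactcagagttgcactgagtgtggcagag
The Fos promoter held 1 CRE core at position -66, the region where a cyclic AMP response element of Fos is known. The Jun promoter held 1 match to TGACNTCA at position -45, a type of site that stood in 8.83% of promoters. The Atf3 promoter held 1 CRE core too, at position -8. Fosl2 held 1 interferon-stimulated response element at position -221 (3.44% of promoters). No promoter of the 9 held TGANTCA or a CArG box within the stretch searched, while these stood in 7.81% and 1.63% of all promoters. Bases further upstream were not searched, so a site there, for Fos or any other gene, would have been missed.

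The AP-1 genes varied among the tumoricidal arrays. Tumoricidal replicate 3 was the highest of the 5 arrays for 5 of the 7 AP-1 genes (Fosb, Fosl2, Jun, Junb and Atf3). Tumoricidal replicate 2 was the lowest for 4 (Fosb, Jun, Junb and Atf3). Over all 17074 genes, tumoricidal replicate 3 was the highest for 5222 and tumoricidal replicate 2 the lowest for 3198. Averaged over the 7 genes, the log2 signal relative to the control arrays was -0.05, -0.27 and 0.47 in tumoricidal replicates 1 to 3, against 0.01 and -0.01 in control replicates 1 and 2. For the BATF genes the same averages were 1.80, 1.24 and 1.51, against -0.09 and 0.09. The gap between both families was 1.78 within side A and 0.94 within side B, where each group has 1 array. Between tumoricidal replicate 3 and the mean of the other 2 tumoricidal arrays, Atf3 differed by 1.33, Fosb by 1.07, Fosl2 by 0.73, Jun by 0.61 and Junb by 0.47. Between control replicate 2 and control replicate 1, the other arrays of sides B and A, they differed by 0.50, -0.14, -0.19, 0.39 and -0.25, from 1 array each.

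Other immediate-early and stress genes were also mostly highest on tumoricidal replicate 3. In the list of 32 such genes, 23 had their highest signal in tumoricidal replicate 3, beside 5222 of all 17074 genes, and the median excess of this array over the other 2 tumoricidal arrays was 0.58, beside 0.11 over all genes. Their summed signal was 59490, 53110 and 86270 on tumoricidal arrays 1 to 3, against 59890 and 65520 on control arrays. The heat-shock gene Hspa1a had 1431.5, 1458.5 and 3833.5 in the tumoricidal replicates, against 2998.4 and 4745.3 in the control replicates, a log2 difference of -0.92 (limma adjusted p = 0.781). Without tumoricidal replicate 3 the mean AP-1 difference was -0.16, and the mean BATF difference was 1.52 both with and without it.

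Between the groups, 0 of the 32 immediate-early and stress genes were called, and at an unadjusted limma p under 0.05 there were 3 higher and 0 lower, against 6.12% and 2.79% of all genes. The 3 largest absolute differences were Egr3 (1.37, adjusted p = 0.465), Egr2 (1.08, adjusted p = 0.412), both zinc-finger factors of the early response, and Hspa1a. Egr2 had 1849.5, 1521.8 and 2504.1 in the tumoricidal replicates, against 897.1 and 913.3 in the control replicates, with the groups apart. The list's median was 0.12, beside 0.13 over all genes. In the MAP kinase list, which holds the kinases and factors upstream of AP-1, 0 of 17 measured members were called, 2 were higher and 0 lower at an unadjusted p under 0.05, and the median was 0.20, beside 0.13 over all genes. The largest differences were the p38-activated kinase Mapkapk3 (1.55, adjusted p = 0.195), the Jun kinase Mapk9 (1.02, adjusted p = 0.365) and the Elk1 factor (-0.75, adjusted p = 0.853). Elk1 was at the floor in tumoricidal replicate 2 and at most 29.7 on any array.

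Most partners and inducers of the BATF genes had positive differences, 14 of 16 measured, beside 63% of all genes. Of these 16 interferon regulatory factors, STATs and receptor components, 0 were called, while 7 were higher and 0 lower at an unadjusted limma p under 0.05, against 6.12% and 2.79% of all genes. The median difference was 0.66, beside 0.13 over all genes. The 3 largest were Socs1, the feedback inhibitor of interferon signalling (3.53, adjusted p = 0.0577), the interferon-induced factor Irf1 (2.49, adjusted p = 0.220), and the kinase Jak2 (1.09, adjusted p = 0.318). Irf8 and Irf4, the interferon regulatory factors named above beside BATF and Jun pairs, had differences of opposite sign. Irf8 had 1263.6, 1065.6 and 1482.5 in the tumoricidal replicates, against 572.5 and 672.4 in the control replicates (1.02, adjusted p = 0.387). Irf4 had 61, 61.1 and 67.7 in the tumoricidal replicates, against 90.7 and 89.4 in the control replicates (-0.51, adjusted p = 0.682). Irf8 and Irf4 were chosen with their values known. Of 29 other leucine zipper factors, 0 were called, 2 were higher and 0 lower at an unadjusted p under 0.05, a share near that of all genes, and the median was 0.11. Creb5 (1.42, adjusted p = 0.560), Atf7 (0.87, adjusted p = 0.505) and Hlf (-0.80, adjusted p = 0.716), which was at most 12.5 on any array, differed most.

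**Figure D4:**
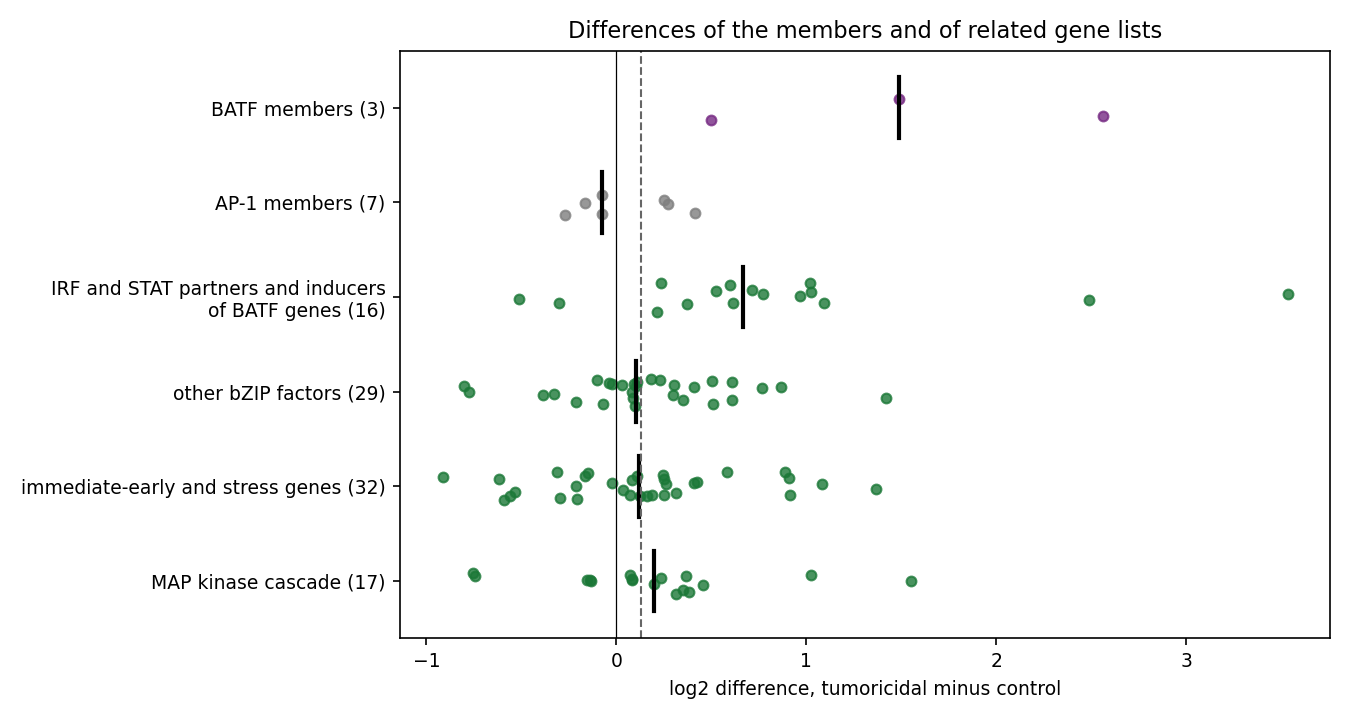
Log2 difference, tumoricidal minus control (x axis), of the BATF and AP-1 genes and of 4 related lists, 1 point per gene (brightest probe set; number of genes in brackets) with black bars at the medians and a dashed line at the median of all genes (0.13). The IRF and STAT list has its median at 0.66. The medians of the other 3 lists, at 0.11, 0.12 and 0.20 from top to bottom, lie near the dashed line, while their genes spread to both sides. The AP-1 median is -0.07 under the median scaling drawn here. The AP-1 mean, not drawn, turned negative with quantile normalization and with the deposited scaling.

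Batf and Batf3 are also expressed by lymphocytes and dendritic cells, and fewer cells of a type and less RNA per cell cannot be told apart in sorted bulk samples. The counts of markers of each cell type below stand beside 6.12% of all genes higher and 2.79% lower at an unadjusted limma p under 0.05. Of 6 measured natural killer markers, 6 were higher at an unadjusted limma p under 0.05 and 0 were called. Their summed signal was 613.5 to 1125 on tumoricidal arrays and 133.3 to 167.2 on control arrays, with Klrc1 at the floor on both control arrays. T-cell markers summed to 132.8, 1257 and 99.2 on tumoricidal arrays 1 to 3, against 174.3 and 91.6 on control arrays, with 1 of 7 measured markers higher at an unadjusted p under 0.05. Type 1 dendritic cell markers summed to 611.9 to 777.2 on tumoricidal arrays and 580.9 to 709.7 on control arrays, with 1 of 7 higher (Itgae) and 1 lower (Cadm1) at an unadjusted p under 0.05. Much of this sum is Wdfy4, and the others summed to 258.2 to 326.9 on tumoricidal arrays and 257.3 to 278.5 on control arrays. The log2 differences of these markers were -0.93 for Cadm1, -0.12 for Flt3 and -0.08 for Zbtb46. The other 4 were positive, at 1.196 for Itgae, 0.76 for Tlr3, 0.76 for Xcr1 and 0.12 for Wdfy4. Xcr1, the defining receptor of type 1 dendritic cells, had 23.3, 8.3 and 8.1 in the tumoricidal replicates, against 8.7 and 5.4 in the control replicates. Plasma cell or myeloma markers, the kind of the injected cells, summed to 3610 to 5077 on tumoricidal arrays and 5621 to 6275 on control arrays, with 4 of 8 lower at an unadjusted p under 0.05. Much of this sum is Xbp1, also counted among the leucine zipper factors, and without it the sums were 1030, 511.5 and 1780 on tumoricidal arrays 1 to 3, against 3165 and 3554 on control arrays. Of the 8 markers, 5 had negative differences, with Pou2af1 at -3.24 and Jchain at -2.80. The other 3 were positive, with Slamf7 at 0.90, Prdm1 at 0.66 and Xbp1 at 0.30. The part of natural killer, T-cell, dendritic cell and myeloma RNA in the BATF differences was not tested.

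Neutrophil markers summed to 9020 to 10100 on tumoricidal arrays and 3860 to 6450 on control arrays, with 3 of 7 measured markers higher at an unadjusted limma p under 0.05. Nearly all of this sum is S100a8 and S100a9. The other 5 summed to 211.1 to 344.5 on tumoricidal arrays and 126.9 to 136.3 on control arrays, with Mpo at -0.29 and Elane, at the floor in tumoricidal replicate 3, at -0.35. Markers of basophils, mast cells and eosinophils summed to 126.7 to 157.3 on tumoricidal arrays and 29.8 to 56.5 on control arrays, with 2 of 6 higher at an unadjusted p under 0.05. Fibroblast markers summed to 1140 to 3997 on tumoricidal arrays and 1768 to 3063 on control arrays, with 0 of 5 either way. Their part was not tested either.

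The genes whose profile was most like each BATF or AP-1 gene were sought by Pearson's r of log2 signal over the 5 arrays, among genes above the median level with an SD of at least 1 (168 candidates, or 167 for Batf2). These values describe 5 arrays in 2 groups and carry no test. Batf2 was most like H2-DMa (r = 0.997), a class II peptide-loading chaperone, and Tap1 (r = 0.997), a peptide transporter of class I presentation. Batf3 was most like Batf2 (r = 0.999) and the activating receptor Klrk1 (r = 0.999), which is 1 of the 6 natural killer markers above, and Batf was most like Selenom (r = 0.982) and the protease Plau (r = 0.981). Among the AP-1 genes, Atf3 was most like the cytokine Tnf (r = 0.976) and Hilpda (r = 0.943), Jun like Hilpda (r = 0.972) and Ahnak2 (r = 0.962), and Fosb like Ifrd1 (r = 0.974) and the nuclear receptor Nr4a3 (r = 0.939). Fos reached 0.864 with the chemokine gene Ccl22 and 0.864 with Ddx4. Fosl2 reached 0.907 with Grasp and F3, and Junb 0.908 with Rarres2 and 0.774 with Il18bp. Jund reached 0.943 with Arhgef25 and 0.696 with F3.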

How the data were processed

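Total RNA of sorted CD11b+ cells was extracted with Trizol and biotinylated cRNA was made from 6 µg for Affymetrix arrays, per the labels' protocols. The table that the authors deposited holds a linear intensity for each probe set and array. How it was computed is not given in the sources used here. The values show that each array's mean after removal of 2% at either end was 100.0, while medians spanned 1.47 times. Arrays were therefore scaled to a common median. After removal of 64 control probe sets, signals below the 25th percentile (4.79) were set to that floor and log2 was taken. A further 3984 probe sets, at the floor throughout, were left out. The other 41053 were compared with limma (lmFit and eBayes, no covariate, two-sided, Benjamini-Hochberg) in R 4.3.3 with limma 3.58.1. Figures were drawn with matplotlib 3.10.9 under Python 3.11.15. The fit was tested on simulated data. Arrays give no counts, and their number limits the precision. Replicates are called biological in the titles, with no word on shared animals.

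Names came from the platform annotation of 2016, checked through Entrez identifiers against RefSeq of GRCm38.p6, which changed 0 symbols. A gene is read by its tested single-symbol probe set with the highest mean log2. Some genes of the lists are not analysed here, and counts are over the measured members. All 13 BATF and AP-1 probe sets are named. From each related gene list the text names the called genes or, with none, the 3 with the largest absolute difference, and from marker lists only examples chosen with values known. Members and lists were chosen with earlier results of these data known. The fit reported did not pair arrays by replicate number, and the values could not decide on such a pairing. Alternatives were quantile normalization, the deposited scaling, other floors and filters, an intensity trend, the replicate number or the spike-in split as a block, values within each side of that split, all probe sets of a gene averaged, and each array left out.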

Additional observations from a re-analysis of the deposited data

How the results depend on the processing

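The mean BATF difference stayed between 1.29 and 1.65 under every alternative run. The other floors and filters, the intensity trend and the averaging of probe sets left it at 1.52 and could not move it. Filters and the trend leave the differences as they are, and each BATF gene has 1 probe set, with all signals above the floors. The AP-1 mean (0.05) became -0.26 with quantile normalization and -0.18 with the deposited scaling. It was -0.16 with the replicate block, -0.17 within side A of the spike-in split and 0.48 within side B. Within side B the gap between the families was 0.94 in place of 1.47. No control carries replicate number 3, so the replicate block gave the same differences as leaving out tumoricidal replicate 3. With 1 array left out the AP-1 mean ran between -0.16, with tumoricidal replicate 3 left out, and 0.21, with tumoricidal replicate 2 left out, and the gap from 1.28 to 1.68. Signs turned for Fos (-0.0038) and the brighter Fosl2 probe set (-0.0265) with quantile normalization and for Atf3 with the spike-in split as a block (0.0889). With 1 array left out, the lowest and highest differences were -0.52 and 0.33 for Atf3, -0.37 and 0.0367 for the brighter Jun probe set, -0.21 and 0.0561 for the brighter Jund probe set, and -0.15 and 1.16 for the dim one. The median over all tested probe sets was 0.09 in the fit reported, 0.0016 with quantile normalization and -0.11 with the deposited scaling. The cause of these turns was not tested. Calls over all probe sets (14 higher, 7 lower) were 0 and 0 with the floor at the 10th percentile, with the replicate block, with the spike-in split as a block and with any 1 array left out. They were 41 higher with the floor at the 40th percentile, 168 higher and 25 lower among probe sets above the median, 41 lower with no filter, and 58 higher with the intensity trend. At an unadjusted p under 0.05 limma gave 1103 higher and 933 lower with the replicate block. This was 4.96% of the tested probe sets, about what that threshold gives with no change, against 7.99% in the fit reported. The block also leaves less data to estimate the spread, so this share cannot tell no change from lost precision. Batf2 was called under 2 of 14 alternatives (adjusted p from 0.00841 to 0.909) and Batf3 under 0 of 14 (0.0597 to 0.909), while both had an unadjusted p under 0.05 under all 14. Leaving out a control array assumes that the lone control varies like the tumoricidal group. Same-numbered arrays deviated from their group means with r = 0.02 for replicate 1 and -0.24 for replicate 2. With 2 controls each r is mirrored for the other control, so these values cannot decide on a pairing. Tumoricidal replicate 3 with control replicate 2, both on side B, had r = 0.26. Tumoricidal replicate 2 with control replicate 1, both on side A, had r = 0.24. With the replicate block Batf2 differed by 2.59 and Batf3 by 1.51. The dim Jund probe set, at 6.7 to 16.6, is limited by its closeness to the floor.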
